A study of Mus musculus with 9 samples.

Results

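Transcripts of the oxidative phosphorylation system were measured in CD11b+ cells of mouse liver, as every gene of the mitochondrial genome and a set of nuclear genes. The nuclear set was chosen by symbol: all genes whose name begins with Ndufa, Ndufb, Ndufc, Ndufs, Ndufv, Uqcr or Cox4 to Cox8, together with Sdha, Sdhb, Sdhc, Sdhd and Cycs. Of 122 such genes, 114 reached at least 1 TPM (transcripts scaled to a fixed total per sample) in at least 3 of the 9 samples and were tested, among 13820 of 45777 genes in all. They were all 13 mitochondrial mRNAs, both mitochondrial rRNAs, 21 of 22 mitochondrial tRNAs and 78 of 85 nuclear genes. Neither the rule by name nor the filter on level used the groups, but the members were chosen with earlier results of these data known.

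All mice received acetaminophen (APAP) into the peritoneum, which causes acute liver failure, and livers were taken 48 hours later. The 9 samples form 3 groups of 3, given PBS (PBS group), HEK cell derived SIRP-EV (HEK-EV group) or MSC derived SIRP-EV (MSC-EV group), where EV are extracellular vesicles and HEK is a human embryonic kidney cell line. The vesicles were injected into a vein 8 hours after APAP. Strain, age and sex are not given in the sources used here, and no group without APAP was analysed here.

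Oxidative phosphorylation passes electrons from NADH and succinate through complexes I to IV to oxygen and uses the resulting proton gradient to make ATP in complex V. The mitochondrial genome encodes a few core subunits of complexes I, III, IV and V, its own rRNAs and its own tRNAs, transcribed as long precursors from both strands and cut apart. All of complex II, cytochrome c and the many other subunits are encoded in the nucleus. In macrophages the pathway is known to differ between inflammatory and repair states.

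The mitochondrial genes lie so close that several share bases, so reads there cannot be assigned to 1 gene with certainty. The stretches below show the junctions of 3 overlapping pairs of mRNAs, as the GENCODE vM21 transcripts on GRCm38 give them, 5′ to 3′ on each gene's own strand. Capitals mark the bases that both genes of a pair cover.
mt-Atp8, chrM:7907-7969, + strand: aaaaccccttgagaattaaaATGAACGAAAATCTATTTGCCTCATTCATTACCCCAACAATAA
mt-Atp6, chrM:7927-7989, + strand: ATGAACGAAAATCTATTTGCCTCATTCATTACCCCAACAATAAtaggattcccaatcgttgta
mt-Nd4l, chrM:10147-10173, + strand: caaaatctcaacctactacaATGCTAA
mt-Nd4, chrM:10167-10193, + strand: ATGCTAAaaattattcttccctcacta
mt-Nd5, chrM:13532-13565, + strand: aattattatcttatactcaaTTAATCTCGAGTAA
mt-Nd6, chrM:13552-13585, - strand: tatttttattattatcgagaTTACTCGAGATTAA
mt-Atp8 and mt-Atp6 shared 43 bases and mt-Nd4l and mt-Nd4 shared 7, each pair on 1 strand. A further pair, mt-Atp6 and mt-Co3, shared 1 base and is not shown. mt-Nd5 and mt-Nd6 shared 14 bases on opposite strands, and mt-Nd6 was the only mRNA of the other strand, against 12 on the + strand. The use of strand in assigning reads is not given in the sources used here.

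The files used here give coverage, FPKM and TPM per gene and no read counts, so the number of reads per library is unknown. Coverage divided by FPKM, a relative measure of depth, ranged over 5.28 to 6.32 for PBS, 6.25 to 6.47 for HEK-EV and 6.59 to 6.85 for MSC-EV libraries. In 4 samples, transcripts typical of acinar cells of the pancreas were present: a list of 20 acinar genes, chosen after values were seen, took 0.00393% and 0.113% of TPM in replicates 1 and 2 of HEK-EV and 0.0151% and 0.318% in replicates 1 and 3 of MSC-EV. Its share in the other 5 was 0.00133% to 0.00154%. The gene of the sorting marker CD11b itself, Itgam, stood at 330 ± 44.3 TPM under PBS, 372 ± 54.1 TPM under HEK-EV and 229 ± 29.6 TPM under MSC-EV (SD, n = 3 each). In bulk samples, fewer cells of a type and less RNA per cell cannot be told apart, and this holds for every value below.

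Mitochondrial mRNAs took a larger share of the transcriptome in the MSC-EV samples than in the others. The 78 nuclear genes together stayed near 1% of TPM. That set holds complex II but no gene of complex V and not Cyc1 of complex III, so the sums do not cover the same complexes. The 13 mitochondrial mRNAs summed to 6.08%, 5.03% and 5.77% of TPM in PBS replicates 1 to 3. HEK-EV samples gave 5.58%, 5.85% and 5.36%, and MSC-EV samples gave 7.46%, 7.14% and 7.54%. All 3 MSC-EV samples lay above all 6 others, and the PBS and HEK-EV samples overlapped. The 78 nuclear genes together summed to 1.02%, 0.984% and 1.0% in PBS, 0.980%, 0.990% and 0.964% in HEK-EV and 1.05%, 1.08% and 0.985% in MSC-EV samples. The PBS and HEK-EV samples overlapped there, and MSC-EV replicate 3 lay within the range of each. The ratio of the mRNA sum to the nuclear sum was 5.94, 5.11 and 5.76 in PBS, 5.70, 5.91 and 5.56 in HEK-EV and 7.09, 6.64 and 7.65 in MSC-EV samples, again with no MSC-EV sample in the range of the others. The sums and ratios are descriptions with no test.

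**Figure D1:**
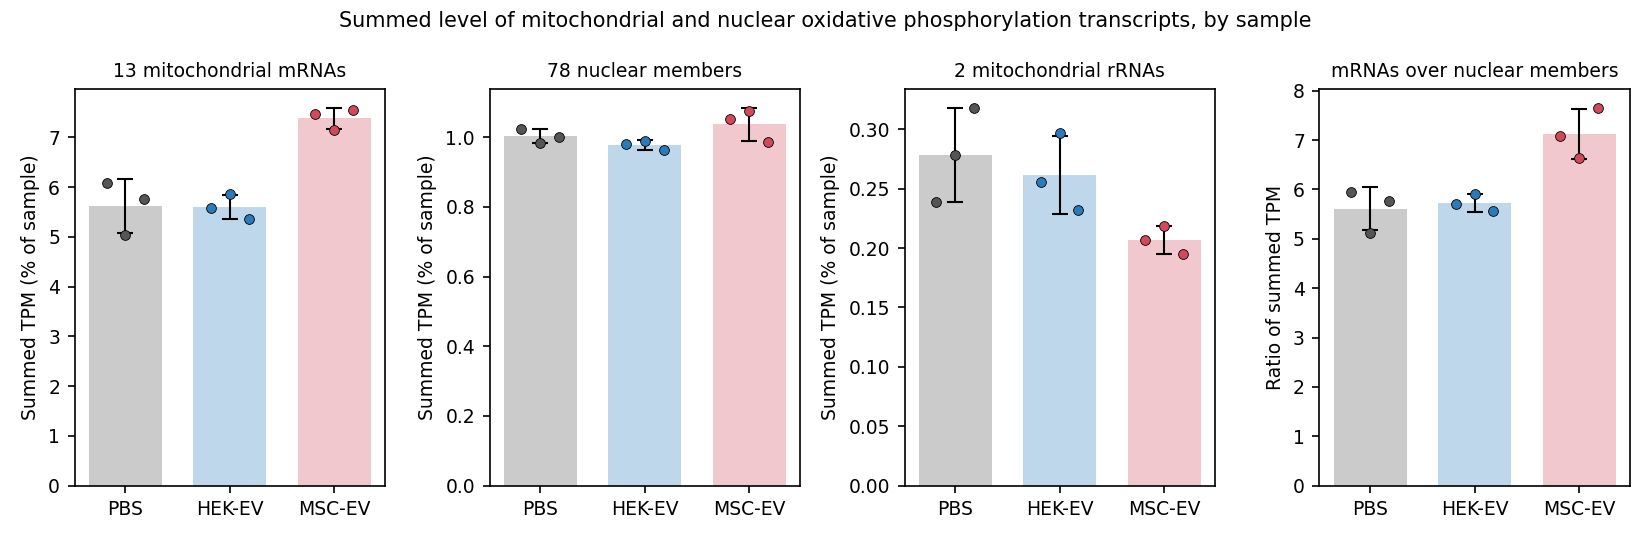
Summed TPM of the 13 mitochondrial mRNAs, the 78 nuclear genes and the 2 mitochondrial rRNAs as a percent of each sample, and the ratio of the mRNA sum to the nuclear sum; points are samples (replicates 1 to 3 from left to right), bars are means and error bars are SD (n = 3). The MSC-EV samples sit above the rest for the mRNAs (7.14% to 7.54% against 5.03% to 6.08%) and below them for the rRNAs, and the groups overlap for the nuclear genes.

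In MSC-EV samples compared with PBS, 8 of the 13 mitochondrial mRNAs rose and none fell at an adjusted p under 0.05 (limma, Benjamini-Hochberg over all genes tested), where 1.86% of all genes tested rose. The 8 were mt-Nd1, mt-Nd2, mt-Nd3, mt-Nd4, mt-Nd4l, mt-Cytb, mt-Co3 and mt-Atp8. The median difference over the 13 was 0.43 on the log2(TPM + 1) scale, against 0.01 over all genes tested. For 11 of the 13, every MSC-EV sample was above every PBS sample, where 11.2% of all genes tested had such a gap upwards. At an unadjusted p under 0.05 the count was 12 of 13, all but mt-Nd6, beside 1371 higher and 1813 lower of all 13820 genes tested.

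The count of 8 depended on single libraries while the size of the difference did so less. It was 0 without PBS replicate 2, PBS replicate 3, MSC-EV replicate 1 or MSC-EV replicate 2, 3 without MSC-EV replicate 3, 4 without HEK-EV replicate 2 and 12 without PBS replicate 1, and the median difference lay between 0.35 and 0.49 throughout these. The highest adjusted p in limma with a library left out was 0.0991 for mt-Nd2, the steadiest of the 8 by this measure, and 0.18 for mt-Co3, the least steady. With the presence of acinar transcripts as a term the count was 0 and the median 0.37. Over only the 5 samples without acinar transcripts (3 PBS, 1 HEK-EV and 1 MSC-EV), the median was 0.40 and the count 0, with the spread estimated from the PBS samples alone. Under quantile normalization of the log2 values, 3 of the 8 passed: mt-Nd2 at 0.47, mt-Nd3 at 0.54 and mt-Nd4l at 0.61. The other 5 did not, with mt-Nd1 at 0.28, mt-Nd4 at 0.32, mt-Cytb at 0.09, mt-Atp8 at 0.05 and mt-Co3 at 0.02. Among the mRNAs outside the 8, mt-Co1 was at 0.11, mt-Co2 at 0.15, mt-Atp6 at 0.17, mt-Nd5 at 0.38 and mt-Nd6 at 0.32. Quantile normalization gives every sample the same set of values, so genes near the top rank in all samples can differ little there. Small differences of very abundant mRNAs under it can thus be set by the method.

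Complex I, the NADH dehydrogenase that takes in electrons from NADH, has 7 mitochondrial subunits, and 5 of their 7 mRNAs rose. mt-Nd1 (chrM:2751-3707) was at 4356, 3521 and 4098 TPM in PBS, 3886, 4371 and 3990 TPM in HEK-EV and 5744, 5919 and 5577 TPM in MSC-EV samples. The lowest MSC-EV sample was well above the highest of the other 6. Its difference from PBS was 0.53 (log2, SE 0.0919, limma adjusted p = 0.0236), which is 44.5% more.

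mt-Nd2 stood at 2490, 2036 and 2317 TPM in PBS, 2393, 2350 and 2149 TPM in HEK-EV and 3311, 3417 and 3146 TPM in MSC-EV samples. The groups were separated in the same way, and the difference was 0.53 (SE 0.0860, limma adjusted p = 0.0213). mt-Nd4l and mt-Nd4, the overlapping pair shown above, differed by 0.55 (SE 0.109, limma adjusted p = 0.0300) and 0.47 (SE 0.0965, limma adjusted p = 0.0313). mt-Nd4l was at 1581, 1199 and 1219 TPM in PBS and 1977, 1756 and 2089 TPM in MSC-EV samples, and mt-Nd4 was at 2813, 2207 and 2621 TPM and 3542, 3380 and 3643 TPM. In both genes PBS replicate 1 was the highest PBS sample and still below every MSC-EV sample. mt-Nd3 was at 521, 489 and 472 TPM in PBS, 464, 551 and 489 TPM in HEK-EV and 746, 665 and 599 TPM in MSC-EV samples, a difference of 0.44 from PBS (SE 0.0920, limma adjusted p = 0.0339).

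The 2 other complex I mRNAs did not pass the threshold. mt-Nd5 was at 1940, 1338 and 1556 TPM in PBS and 2015, 1920 and 2291 TPM in MSC-EV samples, so that PBS replicate 1 lay inside the MSC-EV range. The difference was 0.38 (SE 0.124, limma adjusted p = 0.105). mt-Nd6, transcribed from the opposite strand across the end of mt-Nd5, had the lowest level of the 13, at 260, 192 and 242 TPM in PBS, 249, 230 and 214 TPM in HEK-EV and 256, 271 and 291 TPM in MSC-EV samples. PBS replicate 1 again lay inside the MSC-EV range, and the difference was 0.24 (SE 0.11, limma adjusted p = 0.220). It was 0.12 without PBS replicate 2 and 0.33 without PBS replicate 1.

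mt-Cytb encodes cytochrome b, the only mitochondrial subunit of complex III, which hands electrons to cytochrome c. It was at 4514, 3919 and 4199 TPM in PBS, 4306, 4373 and 3958 TPM in HEK-EV and 5614, 5533 and 5919 TPM in MSC-EV samples. The MSC-EV samples were above the others with no overlap, and the difference from PBS was 0.44 (SE 0.0790, limma adjusted p = 0.0251).

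Complex IV, cytochrome c oxidase, reduces oxygen, and 1 of its 3 mitochondrial mRNAs rose. mt-Co1 (chrM:5328-6872) was the most abundant of the 13, at 15377, 12993 and 14940 TPM in PBS, 14149, 14575 and 13596 TPM in HEK-EV and 18289, 16892 and 18326 TPM in MSC-EV samples. The MSC-EV samples were all higher, yet the difference of 0.31 did not pass the threshold (SE 0.0959, limma adjusted p = 0.0921). mt-Co2 gave 0.34 (SE 0.0856, limma adjusted p = 0.0530), with 5855 to 6775 TPM in PBS and 8054 to 8237 TPM in MSC-EV samples. mt-Co3 was at 5026, 4337 and 5038 TPM in PBS and 6593, 6324 and 5940 TPM in MSC-EV samples and passed, at 0.39 (SE 0.0923, limma adjusted p = 0.0457). It also passed in 6 of 22 alternatives. None of the 3 had overlap between PBS and MSC-EV samples, and their median difference was 0.34, beside 0.47 for the mRNAs of complex I. The share of mt-Co1 in the mRNA sum was 25.3% to 25.9% in PBS, 24.9% to 25.4% in HEK-EV and 23.7% to 24.5% in MSC-EV samples, where only MSC-EV stood clear of both other groups.

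Complex V is the ATP synthase, whose mitochondrial subunits come from the overlapping mt-Atp8 and mt-Atp6. mt-Atp8 was at 8071, 6415 and 7160 TPM in PBS, 7481, 7742 and 7334 TPM in HEK-EV and 9811, 8919 and 10367 TPM in MSC-EV samples. It rose by 0.43 (SE 0.101, limma adjusted p = 0.0454). mt-Atp6 was at 7115, 5782 and 7113 TPM in PBS and 8512, 8343 and 8962 TPM in MSC-EV samples, a difference of 0.37 that did not pass (SE 0.101, limma adjusted p = 0.0657). Both had every MSC-EV sample above every PBS sample.

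**Figure D2:**
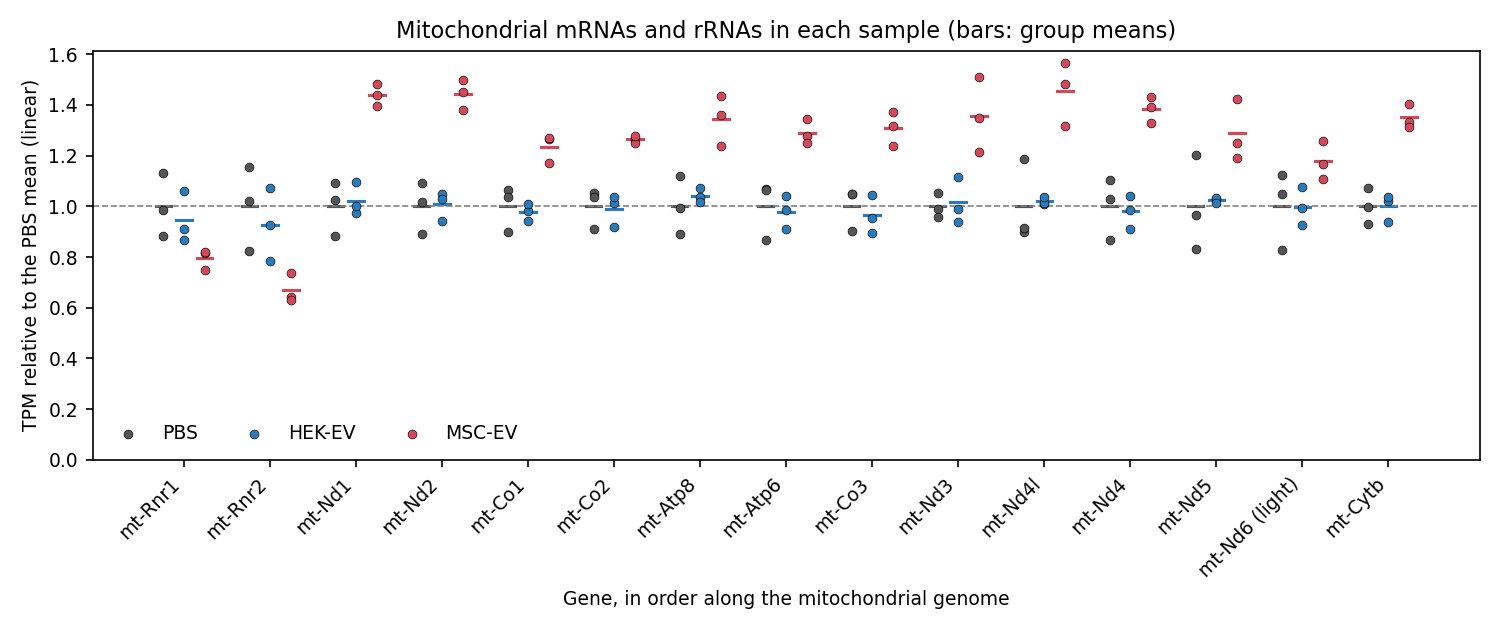
TPM of each mitochondrial mRNA and rRNA in each sample, relative to the mean of the PBS samples on a linear axis, with genes in genome order and short bars at group means; (light) marks the mRNA of the other strand. The MSC-EV points of the mRNAs lie above 1 and those of both rRNAs below 1, while HEK-EV points scatter around 1.

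Compared with HEK-EV samples, MSC-EV samples were higher in all 13 mitochondrial mRNAs with no overlap between the groups, where 12.6% of all genes tested had such a gap upwards. At an adjusted p under 0.05, 8 of the 13 rose (1.51% of all genes tested rose), and the median difference was 0.42. They were mt-Nd1, mt-Nd2, mt-Nd3, mt-Nd4, mt-Nd4l, mt-Cytb, mt-Co2 and mt-Co3. mt-Nd2 gave 0.52 (SE 0.0860, limma adjusted p = 0.0207), mt-Cytb gave 0.43 (SE 0.0790, limma adjusted p = 0.0238) and mt-Atp6 gave 0.40 (SE 0.101, limma adjusted p = 0.0501). This comparison uses the same MSC-EV samples as the one with PBS, so the values are side by side and not independent. The count of 8 was 0 without any 1 of the HEK-EV samples, MSC-EV replicate 1 or MSC-EV replicate 2, and 5 without MSC-EV replicate 3. Under quantile normalization, mt-Nd2 (0.43), mt-Nd3 (0.54) and mt-Nd4l (0.52) passed, and the other 5 of the 8 did not, with mt-Nd4 at 0.36, mt-Co2 at 0.28, mt-Nd1 at 0.19, mt-Cytb at 0.09 and mt-Co3 at 0.07. mt-Atp6 was at 0.19. The limit of this method for very abundant mRNAs, given above, holds here too.

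HEK-EV and PBS samples showed no such gap. None of the 13 mRNAs was called in limma (0 of 13 at an unadjusted p under 0.05 as well), and no gene of the 13820 tested was called in either direction (0%, with 495 genes at an unadjusted p under 0.05). The differences of the 13 ran from -0.05 to 0.07, and their 95% intervals from limma all lay between -0.26 and 0.33. Under array quality weights all 13 were positive, at 0.09 to 0.24, with 3 at an unadjusted p under 0.05 and 0 called. None of the 13 had groups without overlap, where 5.51% of all genes tested had a gap upwards and 2.29% downwards.

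The mitochondrial rRNAs went the other way from the mRNAs, without passing the threshold. mt-Rnr2, the large rRNA of the mitochondrial ribosome, was at 951, 1182 and 1335 TPM in PBS, 1072, 1241 and 906 TPM in HEK-EV and 743, 853 and 730 TPM in MSC-EV samples. All MSC-EV samples were below all others, and the difference from PBS was -0.57 (SE 0.143, limma adjusted p = 0.0546, unadjusted p = 0.00306). mt-Rnr1, the small rRNA (chrM:70-1024), was at 1433, 1604 and 1843 TPM in PBS, 1481, 1725 and 1412 TPM in HEK-EV and 1329, 1331 and 1219 TPM in MSC-EV samples. It differed from PBS by -0.32 (SE 0.105, limma adjusted p = 0.103) and was also lower without overlap. Of all genes tested, 3.25% fell and 14.9% were lower without overlap in that comparison. Against HEK-EV, mt-Rnr2 differed by -0.46 (SE 0.143, limma adjusted p = 0.0889) and mt-Rnr1 by -0.25 (SE 0.105, limma adjusted p = 0.194), where 4.40% of all genes tested fell and 17.5% were lower without overlap. Without HEK-EV replicate 2, mt-Rnr1 differed from HEK-EV by -0.16. Over the 5 samples without acinar transcripts, which hold 1 sample of each of these groups, the differences were -0.09 for mt-Rnr2 and -0.08 for mt-Rnr1. With depth as a covariate, the differences from PBS were -0.98 for mt-Rnr2 and -0.60 for mt-Rnr1. Both passed there (limma adjusted p = 0.0103 and 0.0248). Every MSC-EV library was deeper than all others, so that fit cannot separate depth well from the group. Both rRNAs had an unadjusted p under 0.05 in both comparisons with MSC-EV samples. At that cut, 1813 of 13820 genes tested were lower against PBS and 2080 against HEK-EV. In HEK-EV against PBS neither rRNA had such a p, at -0.11 for mt-Rnr2 and -0.08 for mt-Rnr1. Without PBS replicate 3 these differences were 0.01 and 0.02.

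The ratio of the mRNA sum to the rRNA sum drew the samples further apart than either sum. It was 25.5, 18 and 18.1 in PBS, 21.9, 19.7 and 23.1 in HEK-EV and 36.0, 32.7 and 38.7 in MSC-EV samples. The library kit selects polyadenylated RNA, so the rRNA values are those of molecules captured by it and not of all rRNA. The ratio of mt-Rnr2 to mt-Rnr1 was 0.663 to 0.737 in PBS, 0.641 to 0.724 in HEK-EV and 0.559 to 0.641 in MSC-EV samples.

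Mitochondrial tRNAs are shorter than the fragments such libraries usually hold, and their values were low and uneven. Of the 22, 20 never exceeded 32.0 TPM in any sample, and mt-Ts2 was listed at 0 in all 9. mt-Tq was listed at 0 in 5 samples, mt-Ta in 2, and mt-Tp and mt-Th in 1 each. The exceptions were mt-Tl1, at 133 to 205 TPM, and mt-Ts1 (chrM:6870-6938). mt-Ts1 lies on the opposite strand and shares 3 bases with the end of mt-Co1, and it was at 1334, 1083 and 1300 TPM in PBS, 1003, 1195 and 1140 TPM in HEK-EV and 1761, 1545 and 1329 TPM in MSC-EV samples. Its level was 7.09% to 9.63% of that of mt-Co1 over the 9 samples. No tRNA was called in limma in any comparison. At an unadjusted p under 0.05, 8 of the 21 tested were higher and 1 lower in MSC-EV than in PBS samples, beside 1371 and 1813 of all 13820 genes tested. Against HEK-EV, 4 were higher and 0 lower in MSC-EV samples, beside 1137 and 2080 of 13820, and 1 was lower and 0 higher in HEK-EV than in PBS samples, beside 175 and 320.

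Most nuclear genes stood at levels below those of the mitochondrial mRNAs. The exceptions among the mRNAs were mt-Nd6, with a mean of 245 TPM, and mt-Nd3, with 555 TPM, which lay within the range of the nuclear genes. The nuclear genes' mean TPM over the 9 samples had a median of 102, with 40 of 78 above 100 TPM and 15 below 20 TPM. Cox4i1, the main form of the regulatory subunit 4 of complex IV, and Cox6b1, another complex IV subunit, were the highest, at 561 and 547 TPM. The mt-Co1 level was 23.1 to 26.7 times that of Cox4i1 in PBS, 25.7 to 25.9 times in HEK-EV and 28.9 to 34.6 times in MSC-EV samples. The MSC-EV ratios were above all others.

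**Figure D3:**
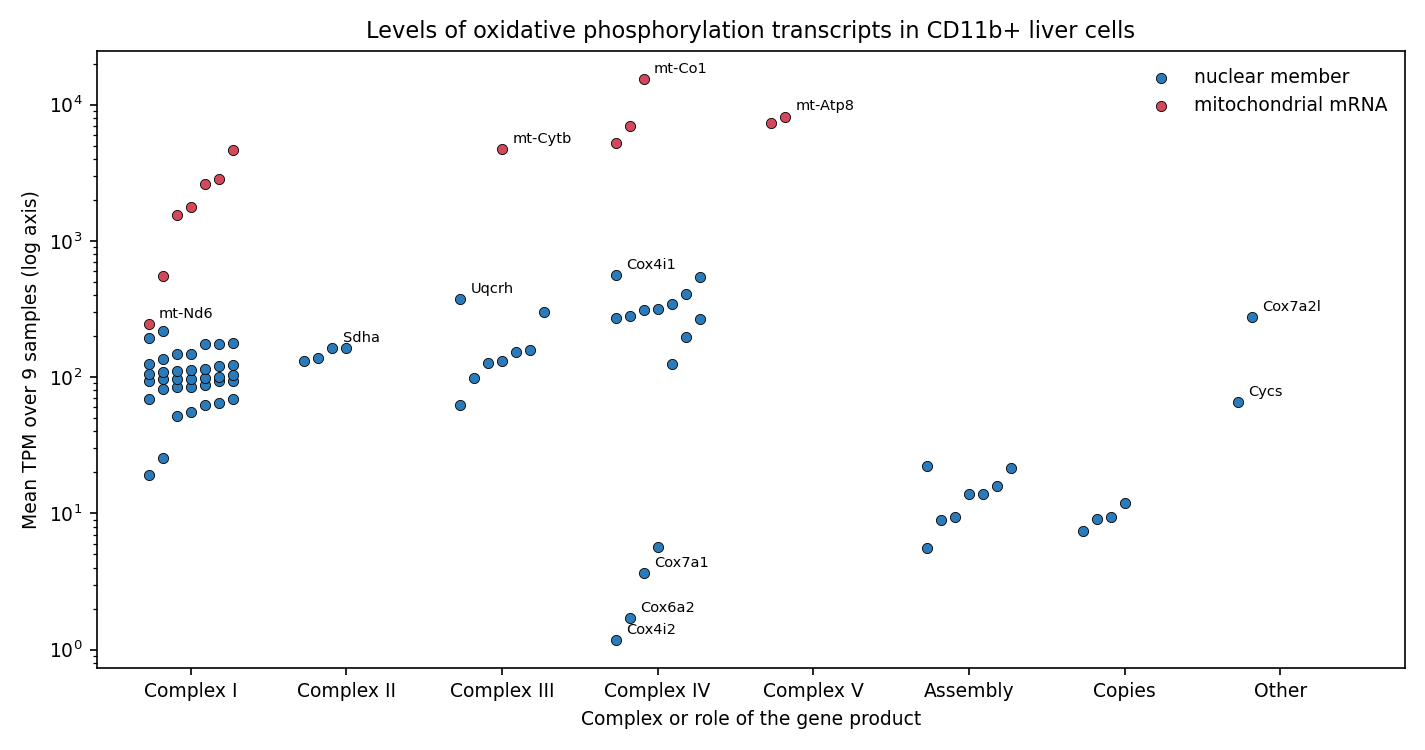
Mean TPM over the 9 samples on a log axis for the 13 mitochondrial mRNAs (red) and the 78 nuclear genes (blue), by the complex or role of the product; Copies are pseudogenes or gene copies, and Other holds Cycs and Cox7a2l. Mitochondrial mRNAs lie above the nuclear genes of the same complex, and 4 nuclear complex IV genes (Cox4i2, Cox6a2, Cox7a1 and Cox6b2) lie well below the rest.

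In MSC-EV samples compared with PBS, none of the 78 nuclear genes was called in limma, and at an unadjusted p under 0.05, 13 were higher and 2 lower. The differences ran from -0.31 to 0.81 with a median of 0.08, and 55 were positive and 23 negative. With a sample left out, the median ran from 0.04 (without MSC-EV replicate 2) to 0.12 (without MSC-EV replicate 3) and positive differences from 48 (without PBS replicate 2) to 66. The count at an unadjusted p under 0.05 (15 in all) then ran from 5 (without PBS replicate 2) to 25 (without PBS replicate 1). Over all genes tested, 1371 of 13820 were higher and 1813 lower at an unadjusted p under 0.05. For 72 of the 78, the 95% interval from limma lay between -0.5 and 0.5. Without overlap, 11 of 78 were higher and 3 lower, where the shares over all genes tested were 11.2% and 14.9%. Differences of single nuclear genes also moved with the processing: Ndufs7 (0.26) was at 0.03 and Ndufaf8 (0.26) at 0.08 with depth as a covariate, and Cox4i1 (-0.05) and Uqcrh (-0.10) turned positive under quantile normalization, at 0.07 and 0.05.

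Of the 7 nuclear core subunits of complex I, 5 differences were positive. Ndufs7 was at 58.3, 66.2 and 70.5 TPM in PBS and 79.7, 81.1 and 72.3 TPM in MSC-EV samples, a difference of 0.26 (SE 0.0875, limma adjusted p = 0.117), and it overlaps another gene on the same strand. Ndufs3 gave 0.15 (SE 0.0634, limma adjusted p = 0.170), and Ndufv2 gave 0.11. Ndufs8, at 126 TPM, gave 0.10. With 1 library left out, Ndufv2 ran from 0.06 (without MSC-EV replicate 2) to 0.16 and Ndufs8 from 0.05 (without PBS replicate 2) to 0.15. Of the 30 accessory subunits, 24 differences were positive, with a median of 0.10. Ndufa12 was at 91.1, 73.8 and 81.8 TPM in PBS and 94.9, 99.5 and 99.3 TPM in MSC-EV samples (0.25, limma adjusted p = 0.103), Ndufa5 gave 0.21 and Ndufa3, the most abundant at 219 TPM, gave 0.03, or -0.03 without MSC-EV replicate 1 and 0.11 without MSC-EV replicate 3.

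Of the 78 nuclear genes, 1 was called higher in MSC-EV than in HEK-EV samples, a share near the 1.51% of all genes tested and so no result about the nuclear genes, and 0 were called in limma in the other comparisons. It was Ndufc1, which encodes a small membrane subunit of complex I. Ndufc1 was at 65.4, 64.1 and 60.4 TPM in PBS, 59.0, 56.6 and 61.3 TPM in HEK-EV and 75.5, 77.8 and 65.7 TPM in MSC-EV samples. MSC-EV replicate 3 was just above the highest PBS sample. The gene rose by 0.30 in MSC-EV against HEK-EV samples (SE 0.0722, limma adjusted p = 0.0438), and its difference from PBS was 0.20 (SE 0.0722, limma adjusted p = 0.135). The count of nuclear genes called against HEK-EV was 0 without any 1 HEK-EV sample, PBS replicate 2, MSC-EV replicate 1 or MSC-EV replicate 2, and 4 without PBS replicate 1 or MSC-EV replicate 3.

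Genes for assembly of complex I showed differences in both directions, none of them called. Ndufaf7, a methyltransferase that modifies a core subunit, was at 13.4, 15.1 and 15.9 TPM in PBS, 15.3, 16.4 and 14.1 TPM in HEK-EV and 10.8, 11.9 and 12.6 TPM in MSC-EV samples. The MSC-EV samples were the 3 lowest, with a difference of -0.31 from PBS (SE 0.0931, limma adjusted p = 0.0870) and -0.35 from HEK-EV (SE 0.0931, limma adjusted p = 0.0590). Ndufaf8, a partner of another assembly factor, was at 19.2, 20.4 and 22.1 TPM in PBS and 24.3, 26.7 and 23.3 TPM in MSC-EV samples (0.26, limma adjusted p = 0.0930). Ndufaf2 gave 0.25 and overlaps another gene on the same strand.

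Complex II, succinate dehydrogenase, is also an enzyme of the citric acid cycle, and its 4 genes differed by 0.05 to 0.11 between MSC-EV and PBS. Sdha, the flavoprotein subunit, was at 162, 159 and 146 TPM in PBS, 168, 166 and 161 TPM in HEK-EV and 166, 165 and 168 TPM in MSC-EV samples. PBS replicate 3 was the lowest, and the gene did not pass (0.10, limma adjusted p = 0.322), with a difference of 0.05 without that sample. Of the 8 nuclear complex III genes, differences were positive in 4 and negative in 4. Uqcrh, the hinge protein and most abundant at 373 TPM, gave -0.10, Uqcrb at 302 TPM gave 0.10, and Uqcr11 gave 0.12. Uqcrb was at 0.04 without PBS replicate 2 and Uqcr11 at 0.06 without MSC-EV replicate 2. Cycs, which encodes the mobile carrier cytochrome c, was at 64.3, 67.7 and 74.2 TPM in PBS, 69.7, 61.9 and 68.6 TPM in HEK-EV and 57.9, 66.6 and 57.5 TPM in MSC-EV samples, a difference of -0.18 with overlapping groups (limma adjusted p = 0.227).

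Complex IV has nuclear subunits with more than one form, and 1 form averaged far more TPM than the other in each pair here. Cox4i1 averaged 561 TPM and Cox4i2, a form known from lung, 1.18 TPM. Cox6a1 averaged 315 TPM and Cox6a2, the heart and muscle form, 1.71 TPM. Cox7a2 averaged 126 TPM and Cox7a1, the muscle form, 3.65 TPM. Ndufa4, now counted as a complex IV subunit, averaged 265 TPM, and Ndufa4l2 never exceeded 0.310 TPM and did not pass the filter.

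Cox6a2 had the largest positive difference of the 78 at a very low level. It was at 1.39, 1.03 and 0.910 TPM in PBS, 1.16, 2.01 and 0.668 TPM in HEK-EV and 3.37, 2.75 and 2.08 TPM in MSC-EV samples. All 3 MSC-EV samples were the highest, and the difference from PBS was 0.81 (SE 0.223, limma adjusted p = 0.0674). It overlaps Itgad, a gene of myeloid cells, on the opposite strand, so the origin of these reads is uncertain. Differences from PBS in abundant subunits were small: Cox4i1 gave -0.05, Cox6b1 gave 0.08, Cox5b gave 0.15, Cox7b gave 0.15 and Cox6a1 gave 0.09. With 1 library left out, Cox6b1 ran from 0.03 (without PBS replicate 2) to 0.15 (without MSC-EV replicate 3), Cox6a1 from 0.05 (without MSC-EV replicate 2) to 0.14, and Cox4i1 from -0.08 to -0.01 (without MSC-EV replicate 3). Cox7a2l, which joins complexes III and IV, was at 267, 312 and 291 TPM in PBS and 248, 239 and 271 TPM in MSC-EV samples (-0.20, limma adjusted p = 0.248).

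The genes at the edge of the filter and the copies carry little weight. Just inside it were Cox4i2, at 0.733 to 2.44 TPM, and Cox6a2. Outside were Cox7b2, Cox8b, Cox8c, Ndufa11b, Ndufs6b, Ndufab1-ps and Ndufa4l2. Cox5b-ps, Ndufb4b, Ndufb4c and Ndufs5-ps passed as copies or pseudogenes at means of 11.9, 9.37, 9.17 and 7.38 TPM, and can share reads with their parent genes. Of the 78 nuclear genes, 26 overlap another annotated gene, 11 of them on the same strand.

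**Figure D4:**
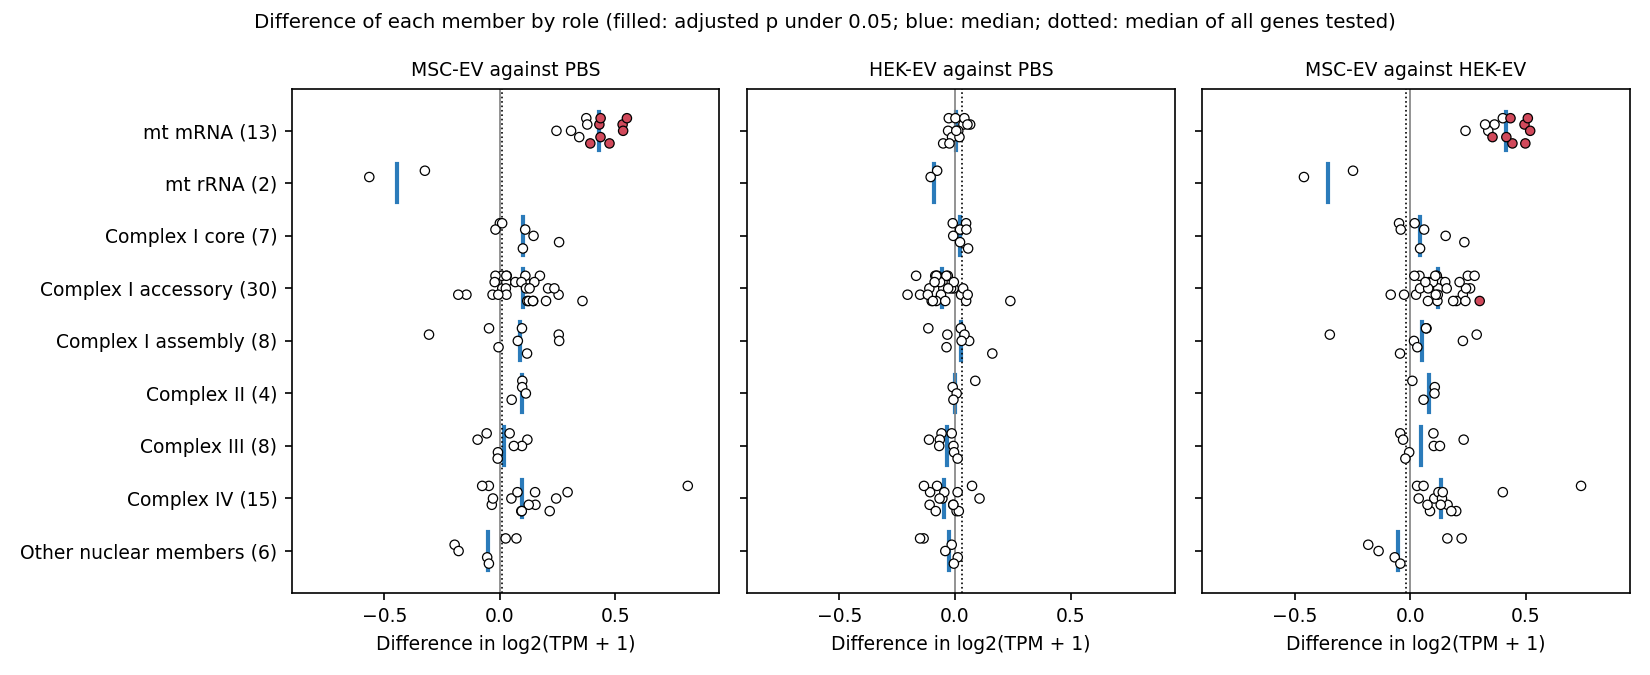
Difference in log2(TPM + 1) of each gene by role in the 3 comparisons, with filled points at a limma adjusted p under 0.05, a blue bar at the median of each role and a dotted line at the median of all genes tested; numbers in brackets count genes. The mitochondrial mRNAs lie between 0.24 and 0.55 in both comparisons with MSC-EV samples and near 0 in HEK-EV against PBS, and the nuclear roles lie close to 0.

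Against HEK-EV, the nuclear genes lay slightly higher in MSC-EV samples, with a median of 0.10 against -0.02 over all genes tested. Positive differences numbered 64 of 78, beside 6391 of 13820 over all genes tested. At an unadjusted p under 0.05, 22 were higher and 1 lower, beside 1137 and 2080 of 13820. With a sample left out, that count (23 in all) ran from 11 (without MSC-EV replicate 2) to 28 (without MSC-EV replicate 3). Without overlap, 23 were higher and 1 lower, where the shares over all genes tested were 12.6% and 17.5%. The median was 0.07 without MSC-EV replicate 2. In HEK-EV against PBS, 8434 of 13820 differences over all genes tested were positive, with a median of 0.03. Of the 78 nuclear genes, 0 were called in limma there, the median was -0.03, and 24 differences were positive. Neither the size nor the sign of that median was steady: it was -0.01 with 38 positive without PBS replicate 1, -0.05 with 19 positive without PBS replicate 2, 0.01 with 40 positive under array quality weights and -0.06 with 13 positive under median-of-ratios scaling. Ndufb1 and Ndufs6, named after their values were seen, were the 2 at an unadjusted p under 0.05 there, both lower (-0.21 and -0.12). Over all genes tested, 175 of 13820 were lower and 320 higher at that cut. Without overlap, 9 of 78 were lower and 0 higher, where the shares over all genes tested were 2.29% and 5.51%. The PBS and HEK-EV samples enter 2 comparisons each, so these counts are not independent.

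Promoter sequence, which the choice by symbol did not use, was searched for 3 motifs. Of the 78 nuclear genes, 62 had a promoter in a RefSeq table (GRCm38.p6, 250 bases before and 50 after the start). The motif of NRF1 (GCGCNTGCG, both strands), a transcription factor known for nuclear genes of the respiratory chain, was found in 18 of 62 (29.0%), against 7.12% of 27025 genes with a promoter in the table. The ETS motif CCGGAAG, bound by GABP among others, was in 13 (21.0%, against 9.93%), and the YY1 motif AAGATGGC in 8 (12.9%, against 3.19%). At least 1 of the 3 was in 34 (54.8%, against 17.9%), and each motif was in a minority of the 62. The 27025 genes were not limited to those past the filter on level, as the 62 were. The higher shares are therefore not shown to be particular to these genes. These shares were not tested, and matches are descriptions and not sites shown to be bound. Cox6a1 and Cycs show such promoters, each given as the 250 bases before the start with matches of NRF1 and ETS in capitals. The Cox6a1 stretch has NRF1 matches that overlap in 1 run, a further NRF1 match and an ETS match on the reverse strand.
Cox6a1, chr5:115348959-115349208, - strand: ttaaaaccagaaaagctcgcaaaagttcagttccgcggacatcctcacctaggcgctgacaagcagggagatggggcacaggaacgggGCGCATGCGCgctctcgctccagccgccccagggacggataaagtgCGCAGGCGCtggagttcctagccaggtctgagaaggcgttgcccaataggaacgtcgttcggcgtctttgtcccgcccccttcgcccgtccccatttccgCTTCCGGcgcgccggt
Cycs, chr6:50566570-50566819, - strand: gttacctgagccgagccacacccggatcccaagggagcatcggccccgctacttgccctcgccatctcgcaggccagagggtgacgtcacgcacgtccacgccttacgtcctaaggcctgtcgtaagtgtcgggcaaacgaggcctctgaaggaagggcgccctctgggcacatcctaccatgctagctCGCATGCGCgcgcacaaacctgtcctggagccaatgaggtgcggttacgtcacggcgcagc
Neither gene was called in any comparison.

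Other genes of mitochondrial function were given by lists, without a test of the list. In MSC-EV against PBS, 0 of 18 nuclear ATP synthase genes, 0 of 20 genes of mitochondrial transcription and RNA handling, 0 of 7 biogenesis regulators, 0 of 17 complex IV assembly genes, 0 of 14 citric acid cycle genes and 0 of 9 mitochondrial chaperones and proteases were called in limma. At an unadjusted p under 0.05 these counts were 3, 2, 1, 1, 4 and 0, beside 3184 of all 13820 genes tested. Their median differences lay between -0.05 and 0.08. Of the other complex III genes 1 of 6 rose, and of the mitochondrial ribosomal proteins 1 of 81, where 1.86% of all genes tested rose. Against HEK-EV, the lists from ATP synthase to chaperones had 8, 0, 1, 1, 5 and 0 genes at an unadjusted p under 0.05. Over all genes tested the count was 3217 of 13820. The 8 ATP synthase genes were all higher, where 1137 of all genes tested were, with a median of 0.12 over the 18. None of the 18 was called, and 1 citric acid cycle gene, Dlst, was called lower.

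Cyc1, the cytochrome c1 subunit of complex III, was at 88.1, 85.7 and 82.5 TPM in PBS, 86.3, 91.7 and 90.6 TPM in HEK-EV and 103, 103 and 97.7 TPM in MSC-EV samples. It rose against PBS (0.25, SE 0.0522, limma adjusted p = 0.0342), with all MSC-EV samples above the rest, and not past the threshold against HEK-EV (0.18, limma adjusted p = 0.0763). Mrps36, named as a ribosomal protein and also known as a part of the 2-oxoglutarate dehydrogenase complex, averaged 48.4 TPM in PBS and 58.0 TPM in MSC-EV samples. It rose against PBS (0.26, SE 0.0495, limma adjusted p = 0.0273) and against HEK-EV (0.28, SE 0.0495, limma adjusted p = 0.0233). Dlst, another part of that enzyme, fell against HEK-EV (-0.22, SE 0.0489, limma adjusted p = 0.0330) and gave -0.18 against PBS (limma adjusted p = 0.0651). Leaving out 1 library ended these calls in several cases, with differences of the same sign. The Cyc1 and Mrps36 calls against PBS were lost without PBS replicate 2 or 3, HEK-EV replicate 2, or MSC-EV replicate 1 or 2 (adjusted p up to 0.136 and 0.125), and that of Mrps36 also without MSC-EV replicate 3. The Mrps36 and Dlst calls against HEK-EV were lost without any 1 HEK-EV sample or MSC-EV replicate 1 or 2 (adjusted p up to 0.0899 and 0.129).

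Genes known to act in mitochondrial transcription were not past the threshold, with differences of both signs. Of the 20 in that list, 13 were positive. Tfam, which packages mitochondrial DNA and starts its transcription, was at 14.8, 14.7 and 14.8 TPM in PBS and 12.7, 13.6 and 15.1 TPM in MSC-EV samples (-0.09, limma adjusted p = 0.551). The difference was -0.04 without MSC-EV replicate 1 and -0.15 without MSC-EV replicate 3. Polrmt, the mitochondrial RNA polymerase, gave 0.16 (limma adjusted p = 0.366), positive in 22 of 22 alternatives, at 0.06 to 0.31. Both were named for their function, outside the rule for named genes. Nrf1 gave -0.19 (limma adjusted p = 0.141), Fastkd2, an RNA-binding protein of mitochondria, gave 0.25 (limma adjusted p = 0.154), and Atp5g1, of the ATP synthase, gave 0.24 (limma adjusted p = 0.125).

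Markers of other cells were also compared between the groups. Over all genes tested, 1.86% were called higher and 3.25% lower in MSC-EV than in PBS samples, and 1.51% and 4.40% in MSC-EV than in HEK-EV samples. At an unadjusted p under 0.05, 1371 of 13820 genes were higher and 1813 lower against PBS, and 1137 and 2080 against HEK-EV. A list of 12 hepatocyte genes, 10 of them past the filter, summed to 0.0416% to 0.0498% of TPM in PBS, 0.0342% to 0.0532% in HEK-EV and 0.0689% to 0.0794% in MSC-EV samples, with 2 genes higher in MSC-EV than in PBS and 4 higher than in HEK-EV at an adjusted p under 0.05 (limma). Monocyte markers (6 of 6 past the filter) summed to 3097 to 6345 TPM in PBS, 4007 to 4999 TPM in HEK-EV and 2231 to 2592 TPM in MSC-EV samples, with 3 genes lower in MSC-EV than in PBS and 2 lower than in HEK-EV at an adjusted p under 0.05 (limma). Macrophage markers (7 of 7) summed to 6974 to 8530 TPM, 7274 to 8362 TPM and 8021 to 9580 TPM in the same order, and neutrophil markers (11 of 11) to 3117 to 5737 TPM, 5125 to 7037 TPM and 3041 to 3844 TPM. Of these, 1 macrophage gene was called higher in MSC-EV than in HEK-EV, and the neutrophil genes were split: 1 was called higher than in PBS, and 1 higher and 1 lower than in HEK-EV, with 3 higher and 7 lower at an unadjusted p under 0.05. Kupffer cell markers (6 of 6) summed to 2604 to 3130 TPM, 1775 to 3664 TPM and 1460 to 2539 TPM, and endothelial markers (6 of 6) to 225 to 267 TPM, 143 to 321 TPM and 88.0 to 173 TPM, with 0 genes called in limma in either list and 2 Kupffer cell and 6 endothelial genes lower than in PBS at an unadjusted p under 0.05. Lymphocyte markers (3 of 7) summed to at most 15.4 TPM and erythroid markers (1 of 6) to at most 4.71 TPM in any sample, and 1 lymphocyte gene was called higher in MSC-EV in each of the comparisons with PBS and HEK-EV. Ptprc, which encodes CD45, fell in MSC-EV against PBS (-0.46, SE 0.0873, limma adjusted p = 0.0271), a call lost without PBS replicate 2 or 3 or any 1 MSC-EV sample (adjusted p up to 0.118). Against HEK-EV, both Ptprc and Itgam fell, and each call was lost in 5 of the 9 fits with a sample left out. The part of these cells, and of depth, in the mitochondrial differences was not tested.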

How the data were processed

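RNA of CD11b+ liver cells was extracted with Trizol and sequenced from TruSeq Stranded mRNA libraries, per the labels' protocols. HISAT2 2.1.0, StringTie and mm10 are named in the submitters' processing notes, and strand handling is not given in the sources used here. Coverage (a signal per gene), FPKM and TPM were deposited by the authors, 1 table per sample, per the file headers. TPM sums to 1000000 per sample, so a rise of abundant genes lowers the share of others. Gene IDs were matched to RefSeq GRCm38.p6 (45679 of 45777, 99.8%), and mitochondrial genes are named as in GENCODE vM21, whose positions matched for 37 of 37.

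Samples were grouped by the treatment in their labels, 3 per group. The labels do not say that they are separate animals, so p-values measure the spread between these samples, which correlated at 0.980 to 0.993 within groups across genes. Values entered as log2(TPM + 1) after a filter (1 TPM or more in 3 or more samples). Testing used limma 3.58.1 under R 4.3.3 (1 fit of 9 samples, eBayes with a trend), two-sided, with Benjamini-Hochberg adjustment over all genes tested and a threshold of 0.05. An exact permutation test of 3 against 3 cannot go below 0.1 and was not used. Named genes were all mitochondrial mRNAs and rRNAs, and of each nuclear role the 3 of smallest p in MSC-EV against PBS and the 2 of highest mean, all nuclear genes called, the pairs of isoforms, and up to 3 genes of smallest p in a list of other genes. The values of 1 gene that the rule names are not reported here. The members and lists were chosen with earlier results of these data known.

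Each choice was also changed on its own: pseudocount (0.1), filter (none, or 5 TPM as the minimum), unit (FPKM), scaling (median of ratios, TPM rescaled without the mitochondrial genes, quantile normalization), samples fitted (only the 6 of a comparison, or each of the 9 left out in turn), array quality weights, and the replicate number as a block. The acinar split as a term (samples with a median of the acinar list above 0.3 TPM), only the 5 samples without acinar transcripts, and depth as a covariate were chosen after seeing the data. The test was checked on simulated data. Python 3.11.15 with pandas 2.3.3 was used for sums, motifs and figures.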

Additional observations from a re-analysis of the deposited data

How the results depend on the processing

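All 13 mitochondrial mRNAs kept a positive difference in MSC-EV samples against both other groups in every alternative run (572 of 572 values, 0.02 to 0.88). Part of that tally could not change. The filter, the replicate block and fitting only the 6 samples compared leave the difference as it was. Leaving out a sample of the group not compared, or the acinar term against HEK-EV, does so too. Quantile normalization gives every sample the same set of values, which limits differences of genes near the top rank in all samples. Depth was higher in every MSC-EV library than in all others, so a fit with depth cannot separate it well from the group. Counts of calls moved. The mRNAs called against PBS (8) were 0 with no filter, 0 with only the 6 samples compared, 0 with the acinar split as a term, 0 over the 5 samples without acinar transcripts, 3 with quantile normalization, 4 with a replicate block and 13 with array quality weights, and 0 to 12 when a sample was left out. Against HEK-EV (8), they were 0 with no filter, 0 over those 5 samples, 3 with quantile normalization, 4 with a replicate block, 6 with the acinar split as a term, 10 with depth as a covariate, 11 with only the 6 samples compared, 11 with array quality weights, and 0 to 12 when a sample was left out. Those 5 samples hold 1 MSC-EV and 1 HEK-EV sample, assumed to vary like the 3 PBS samples, so the 0 against HEK-EV compares 1 sample with 1 and says nothing about stability. Quantile normalization lowered the median to 0.28 in both comparisons, depth as a covariate gave 0.53 against PBS, and array quality weights gave 0.15 for HEK-EV against PBS (0.01); with a sample left out, the medians were 0.35 to 0.49 for MSC-EV against PBS, 0.39 to 0.46 for MSC-EV against HEK-EV and -0.07 to 0.06 for HEK-EV against PBS.

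Mitochondrial rRNAs and tRNAs called against PBS (0) were 2 with a minimum of 5 TPM, 1 with TPM rescaled, 12 with weights, 2 with depth and 0 to 4 with a sample left out. Against HEK-EV (0) they were 1, 0, 3, 2 and 0 to 2. Nuclear genes called against PBS (0) were 1 with quantile normalization, 29 with weights, 2 with depth and 0 to 7 with a sample left out (7 without PBS replicate 1). Against HEK-EV (1) they were 0 with no filter, median-of-ratios scaling, a replicate block or the 5 samples, 2 with a minimum of 5 TPM, 6 with quantile normalization, 11 with weights, 5 with depth and 0 to 4 with a sample left out. The nuclear median against HEK-EV (0.10) was 0.17 with FPKM and 0.17 with quantile normalization. The nuclear sum, 0.048 higher in MSC-EV than in PBS samples on a log2 scale, was 0.092 higher in FPKM. The cause of these shifts was not tested.

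Pairing by replicate number was checked by correlating, across genes, the deviations of each sample from its group mean. These correlations ran from -0.50 to 0.06 over the 9 same-numbered pairs. Among samples of the other groups, 0 of 9 correlated best with their own number. Without read counts no counting error can be given, which limits tRNAs, Cox6a2 and Cox4i2 most.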
